A study of Mus musculus with 6 samples.

Results

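Of the 60 genes described here, which encode the proteins of respiratory complexes II to V, cytochrome c and a set of their assembly factors, 17 rose and 6 fell in mouse embryonic fibroblasts (MEFs) of the genotype Rb1L/L compared with Rb1+/+. These are 28.8% and 10.2% of the 59 that were tested, where 7.1% of all tested genes rose and 5.08% fell. The genes were taken by symbol from 19938 genes named on the array: every symbol that starts with Cox and a digit, with Uqcr, with Atp5, or with Sdh followed by a, b, c or d, and in addition Cyc1 and Cycs. They comprised 8 genes of complex II, 9 of complex III, Cycs, 25 of complex IV and 17 of complex V. The symbols bring in 13 genes that are not subunits: 4 assembly factors of complex II, 8 assembly factors of complex IV, and Cox7a2l, which joins complexes III and IV into supercomplexes. Cox7c and Cox16 lie in transcript clusters that carry several symbols and were not analysed here.

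Expression was measured on 6 Affymetrix arrays, with 3 cultures per genotype, from total RNA of dividing MEFs at passage 4. The fibroblasts had been derived from E13.5 embryos and are a primary, mixed population. Rb1 encodes the retinoblastoma protein pRb, and the L allele changes the pocket surface that recognises LXCXE-containing partners. Both copies are altered in every cell of an Rb1L/L culture, the labels name no treatment, and the design describes the cultures as pairs of the genotypes. The labels do not say whether same-numbered cultures come from littermates, and the p-values measure the spread between these 6 cultures.

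Complexes II, III and IV are the stations of the respiratory chain in the inner mitochondrial membrane. Complex II, which is also an enzyme of the tricarboxylic acid cycle, and complex I pass electrons to ubiquinone, complex III passes them on to cytochrome c, and complex IV gives them to oxygen. Complexes III and IV move protons out of the matrix, and complex V, the ATP synthase, lets them flow back and makes ATP. Apart from a few core subunits encoded by mitochondrial DNA, the proteins are encoded in the nucleus and imported. In proliferating fibroblasts the chain also keeps the cycle running that supplies precursors for nucleotides and lipids.

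Values are log2 signals, and a level is given as the mean of 3 cultures ± SD. A log2 fold change is the Rb1L/L mean minus the Rb1+/+ mean, given with its moderated standard error (SE). A gene is said to have risen or fallen when limma's moderated test gave a Benjamini-Hochberg adjusted p under 0.05 over the 15462 genes tested. Over those genes, pairs of arrays of the same genotype had correlations of 0.9948 to 0.9960 and pairs of unlike genotype of 0.9873 to 0.9927. Of 10 fibroblast markers 0 rose and 2 fell (Col3a1 and Lum), and 8 had a negative change. Their means ran from log2 6.43 in Rb1+/+ and 6.05 in Rb1L/L for Lum to 13.49 and 13.37 for Vim. Of all tested genes 7.1% rose and 5.08% fell. Of 9 tested macrophage and blood markers 3 rose (33.3%, Adgre1, C1qa and Cd14) and 1 fell (11.1%, Cx3cr1). Their log2 summed signal was 10.89 to 11.59 in Rb1+/+ and 11.12 to 11.65 in Rb1L/L, and the brightest of them was Lyz2 (mean log2 10.60), which did not pass. Of 7 neural markers 3 fell (42.9%, Fabp7, Ncam1 and Tubb3), with a summed signal of 12.41 to 12.51 and 12.14 to 12.18. The part of these cells in the results below was not tested, and in bulk RNA fewer cells of a type and less RNA per cell cannot be told apart.

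Of the 60 genes, 59 lay above the filter on dim genes. Of these, 23 (39%) changed, against 12.2% of all tested genes: 17 (28.8%) rose, against 7.1%, and 6 (10.2%) fell, against 5.08%. The genes had been proposed with earlier results of these arrays known, so the shares are a description. The changes were small, between 1.17-fold and 1.54-fold for the genes that rose and between 1.17-fold and 1.25-fold for those that fell. The median log2 fold change was 0.05, against -0.02 over all tested genes. The cultures of the genotypes did not overlap for 31 genes, 23 higher and 8 lower in Rb1L/L, where 34.5% of all tested genes were apart in this way, 16.2% higher and 18.3% lower. The 8 lower genes are thus no larger a share than among all genes. With the replicate number as a block, 16 rose and 6 fell, against 7.99% and 6.45% of all tested genes.

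**Figure D1:**
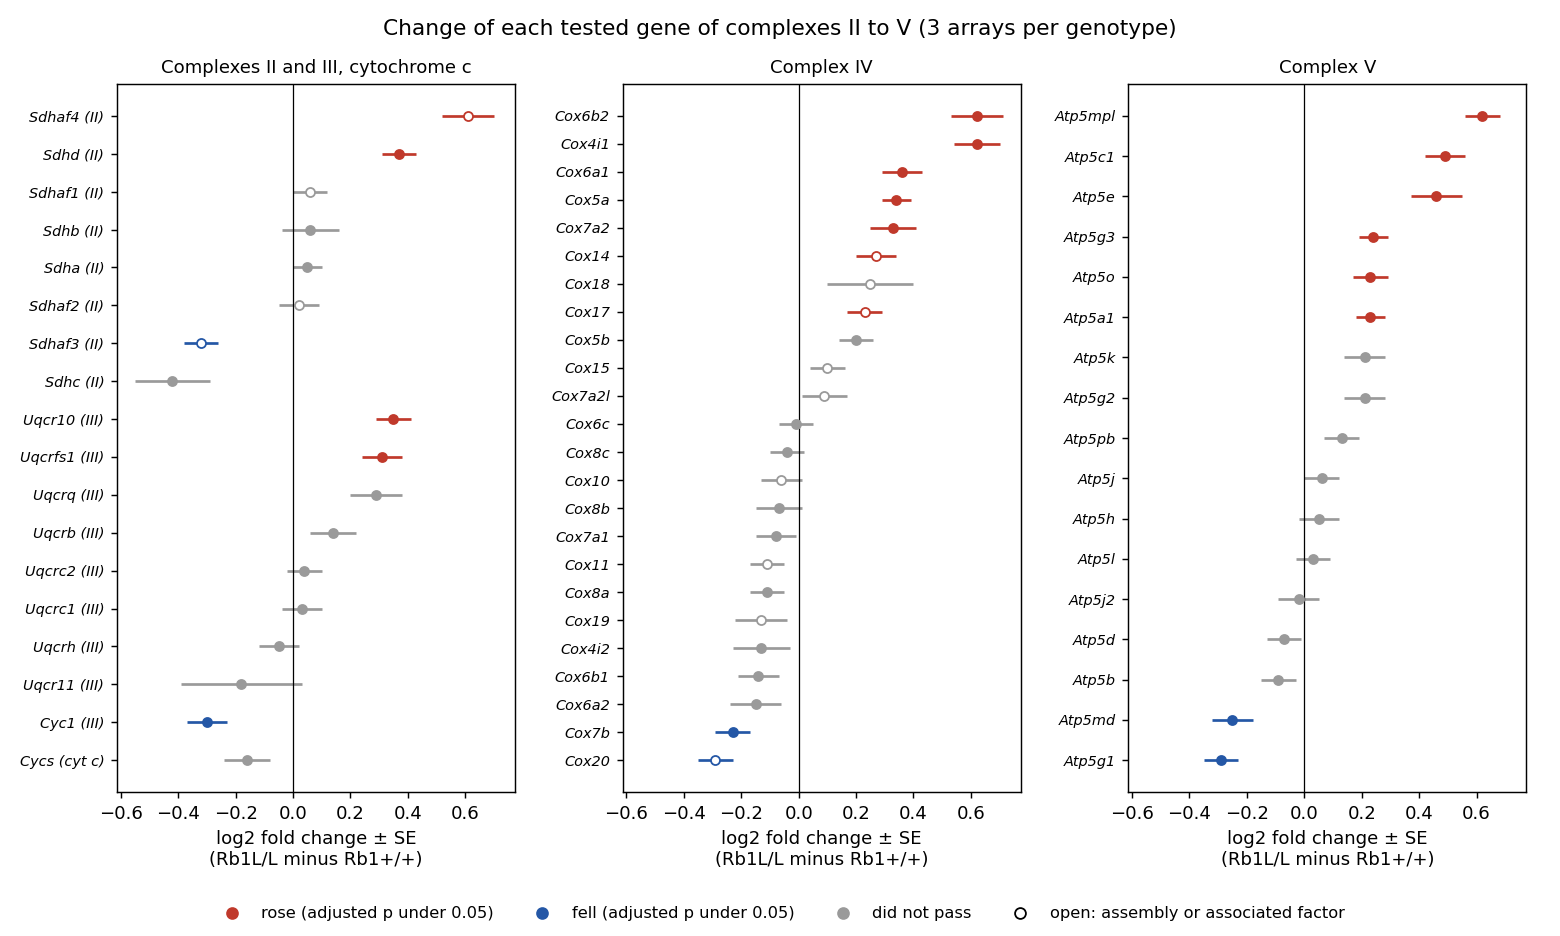
Log2 fold change (Rb1L/L minus Rb1+/+, horizontal axis) with its standard error for each of the 59 tested genes, in 3 panels by complex, from 3 arrays per genotype. Red points rose, blue points fell, grey points did not pass, and open points are assembly or associated factors; each panel holds genes on both sides of 0, from -0.42 for Sdhc to 0.62 for Cox4i1, Cox6b2 and Atp5mpl.

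Genes that rose and genes that fell were found in each of the 4 complexes. Complex II had 2 that rose and 1 that fell among 8 (25% and 12.5%), and complex III 2 and 1 among 9 (22.2% and 11.1%). Complex IV had 7 and 2 among 24 (29.2% and 8.33%), and complex V 6 and 2 among 17 (35.3% and 11.8%). Of all tested genes 7.1% rose and 5.08% fell. With 1 or 2 genes per complex, the falls are too few to be set apart from that share, and that in complex II is of an assembly factor. Among subunits 14 of 46 rose and 4 fell, and among the 13 factors 3 rose and 2 fell. The number of arrays limits these counts. Without Rb1+/+ replicate 1, 2 or 3, 10, 15 and 10 of the 23 genes still passed, and without Rb1L/L replicate 1, 2 or 3, 7, 9 and 13 did. Without both arrays numbered 1, 2 or 3, 0, 6 and 5 of the 23 still passed, while the calls over all genes dropped to 92, 467 and 460. Sdhd, Sdhaf4, Cox4i1, Cox5a, Cox6b2, Atp5c1 and Atp5mpl passed in all 6 fits that left out 1 array.

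In complex II, 1 of the 2 membrane anchor genes rose, and the catalytic subunits did not pass. Sdhd, which encodes the small anchor subunit, measured 10.16, 10.23 and 10.13 in Rb1+/+ replicates 1 to 3 and 10.53, 10.57 and 10.51 in Rb1L/L replicates 1 to 3. Every Rb1L/L culture was above every Rb1+/+ culture, and Sdhd rose by 0.37 ± 0.06 (SE, limma adjusted p = 0.00842), with 0.37, 0.35 and 0.38 in the pairs 1 to 3. Sdhc, which encodes the other anchor subunit, read 11.22, 11.17 and 11.57 in Rb1+/+ and 10.84, 10.74 and 11.13 in Rb1L/L. All 3 Rb1L/L cultures lay below all Rb1+/+ cultures, yet the numbered pairs stood at different levels, and the change of -0.42 ± 0.13 (SE) did not pass (limma adjusted p = 0.0717). The differences within the pairs were -0.39, -0.43 and -0.44, and with the replicate number as a block the gene passed (limma adjusted p = 0.0076), as it did without Rb1L/L replicate 3 (0.0468).

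The difference between the signals of Sdhd and Sdhc on the same array was -1.15 ± 0.26 in the 3 Rb1+/+ cultures and -0.36 ± 0.23 in the 3 Rb1L/L cultures (SD). This shift of 0.79 was looked at after the values were seen and has no test. Sdha, the flavoprotein that oxidises succinate, had a change of only 0.05 ± 0.05 although its groups were apart (SE, limma adjusted p = 0.599), and Sdhb, the iron-sulphur subunit, of 0.06 ± 0.10 (adjusted p = 0.718).

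The assembly factors of complex II also divided. Sdhaf4, which helps join the flavoprotein to the iron-sulphur subunit, stood at 6.71, 7.05 and 6.88 in Rb1+/+ and at 7.55, 7.47 and 7.44 in Rb1L/L. The groups were apart, and the gene rose 1.52-fold (log2 0.61 ± 0.09 SE, limma adjusted p = 0.00667). A second, dimmer cluster annotated to Sdhaf4 (mean log2 5.73, against 7.18) had a difference of -0.09, so the 2 clusters disagreed, and with the mean of the clusters the change was only 0.26 (limma adjusted p = 0.0306). Sdhaf3, which protects and helps mature the iron-sulphur subunit, read 8.02, 8.06 and 8.16 in Rb1+/+ and 7.71, 7.74 and 7.83 in Rb1L/L, all lower. It fell by 0.32 on the log2 scale (SE 0.06, limma adjusted p = 0.0188), and its adjusted p was 0.0529 without Rb1+/+ replicate 3, 0.0713 without Rb1L/L replicate 1 and 0.0669 without Rb1L/L replicate 2. Sdhaf1, another factor of iron-sulphur assembly, and Sdhaf2, which attaches the flavin, had changes of 0.06 and 0.02 with overlapping groups.

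In complex III, the genes of both redox-active nuclear subunits changed, in opposite directions. Cyc1 encodes cytochrome c1, which hands electrons to cytochrome c. It measured 11.29, 11.21 and 11.43 in Rb1+/+ and 10.96, 11.01 and 11.07 in Rb1L/L. The Rb1L/L cultures were the 3 lowest, for a fall of 0.30 (fold change -0.30 ± 0.07 SE, limma adjusted p = 0.0327). Uqcrfs1 encodes the Rieske iron-sulphur protein, which passes electrons to cytochrome c1. Its values were 8.11, 8.26 and 8.05 in Rb1+/+ and 8.43, 8.49 and 8.43 in Rb1L/L, and it rose by 0.31 ± 0.07 (SE, limma adjusted p = 0.027). Both calls passed in 1 of the 6 fits without 1 array, the fit without Rb1+/+ replicate 2, and in the other 5 the adjusted p ran up to 0.112 for Cyc1 and 0.0904 for Uqcrfs1.

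Uqcr10, a small accessory subunit, was the other complex III gene that rose. It read 9.60, 9.75 and 9.58 in Rb1+/+ and 10.00, 9.97 and 10.02 in Rb1L/L, a change of 0.35 ± 0.06 (SE, limma adjusted p = 0.0148). Without Rb1+/+ replicate 1 its adjusted p was 0.0502 and without Rb1L/L replicate 1 it was 0.0549. Uqcrq, a subunit next to cytochrome b, had a change of 0.29 ± 0.09 with groups apart but did not pass (adjusted p = 0.0657, or 0.0481 with a mean-variance trend). The core genes Uqcrc1 and Uqcrc2 differed by 0.03 and 0.04, Uqcrb by 0.14, Uqcrh, the hinge protein, by -0.05 and Uqcr11 by -0.18, all with overlapping groups. Uqcr11 had the widest error of all 59 genes (SE 0.21), with 10.62 in Rb1+/+ replicate 3 against 9.91 and 9.96 in the other Rb1+/+ cultures.

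Cycs encodes cytochrome c, the carrier between complexes III and IV and a trigger of apoptosis once it leaves mitochondria. It stood at 11.98, 12.19 and 12.27 in Rb1+/+ and at 11.96, 12.04 and 11.94 in Rb1L/L. The groups overlapped, and the change of -0.16 ± 0.08 did not pass (limma adjusted p = 0.233).

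In complex IV, the genes of a pair of early-assembling subunits rose. Cox4i1 encodes the common isoform of subunit 4, which joins the mitochondrially encoded core early. It measured 10.00, 10.11 and 9.81 in Rb1+/+ and 10.59, 10.55 and 10.63 in Rb1L/L. The lowest Rb1L/L culture lay well above the highest Rb1+/+ culture, and the gene rose 1.53-fold (log2 0.62 ± 0.08 SE, limma adjusted p = 0.00477). Cox5a, whose protein joins with subunit 4, read 10.18, 10.20 and 10.21 in Rb1+/+ and 10.54, 10.49 and 10.57 in Rb1L/L. With little spread in either group, it rose by 0.34 ± 0.05 (SE, limma adjusted p = 0.00908).

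Other common subunits of complex IV changed as well. Cox6a1 had values of 10.65, 10.69 and 10.52 in Rb1+/+ and 11.06, 10.92 and 10.96 in Rb1L/L, and it rose by 0.36 ± 0.07 (SE, limma adjusted p = 0.0174, or 0.0644 without Rb1L/L replicate 1). Cox7a2 had values of 10.23, 10.48 and 10.28 against 10.69, 10.55 and 10.74, and it rose by 0.33 ± 0.08 (limma adjusted p = 0.0402, or 0.0532 with the replicate block). The difference within pair 2 was 0.07, against 0.45 and 0.46 in pairs 1 and 3, and the call held in 1 of the 6 fits without 1 array, that without Rb1+/+ replicate 2. Cox7b, an accessory subunit encoded on the X chromosome, was the subunit gene that fell. It read 12.39, 12.37 and 12.43 in Rb1+/+ and 12.20, 12.10 and 12.22 in Rb1L/L, and fell by 0.23 (SE 0.06, limma adjusted p = 0.0425). The fall was not called in any of the 6 fits without 1 array (adjusted p = 0.0662 to 0.142), nor after median centring (0.0626) or quantile normalization (0.0508). Xist, transcribed from the silenced X, stood at 5.13 and 4.79 in the cultures numbered 1 and between 11.44 and 11.61 elsewhere. Eif2s3y, on the Y chromosome, stood at 8.36 and 8.47 in the cultures numbered 1 and between 3.41 and 3.63 elsewhere. Pair 1 thus reads as male and pairs 2 and 3 as female. Cox7b was lower in Rb1L/L in pair 1 (-0.19) as in pairs 2 and 3 (-0.27 and -0.22).

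The remaining common subunits did not pass. Cox5b, which binds zinc, had a change of 0.20 ± 0.06 with groups apart (limma adjusted p = 0.0665, or 0.0256 with a mean-variance trend and 0.0492 after quantile normalization). Cox6b1, Cox6c and Cox8a had changes of -0.14, -0.01 and -0.11 with overlapping groups.

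Several subunits of complex IV exist as tissue isoforms, and of the 6 tested isoform genes only Cox6b2 changed (16.7%, near the 12.2% of all tested genes). Cox6b2 is known as the testis isoform of subunit 6b. It read 7.05, 7.05 and 7.31 in Rb1+/+ and 7.81, 7.80 and 7.66 in Rb1L/L, and it rose 1.54-fold (log2 0.62 ± 0.09 SE, limma adjusted p = 0.00557). Its partner Cox6b1 had a change of -0.14 ± 0.07. The tested markers of male germ cells were dim (means of log2 5.19 to 6.64) and did not change (0 of 3, and 0 at an unadjusted p under 0.05). Ddx4 and Dazl, which define these cells, were below the filter at log2 4.12 and 3.70 in Rb1+/+ and 4.15 and 3.58 in Rb1L/L. Cyct and Ldhc also lay below it (means of log2 3.79 and 4.98). The part of germ cells in the rise of Cox6b2 was not tested. Cox4i2, an isoform of the lung that responds to oxygen, averaged 6.96 ± 0.09 (SD, n = 3) in Rb1+/+ and 6.83 ± 0.20 in Rb1L/L, a change of -0.13 ± 0.10 (SE). The isoforms of heart and skeletal muscle, Cox6a2, Cox7a1 and Cox8b, had changes of -0.15, -0.08 and -0.07 with overlapping groups, and Cox8c of -0.04. Cox7b2 lay below the filter at 3.75 ± 0.10 and 3.69 ± 0.04 and was not tested. Of 9 tested muscle markers, 0 passed in limma, and 1, Ckm, had an unadjusted p under 0.05 (-0.15 ± 0.05 SE, limma adjusted p = 0.104).

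**Figure D2:**
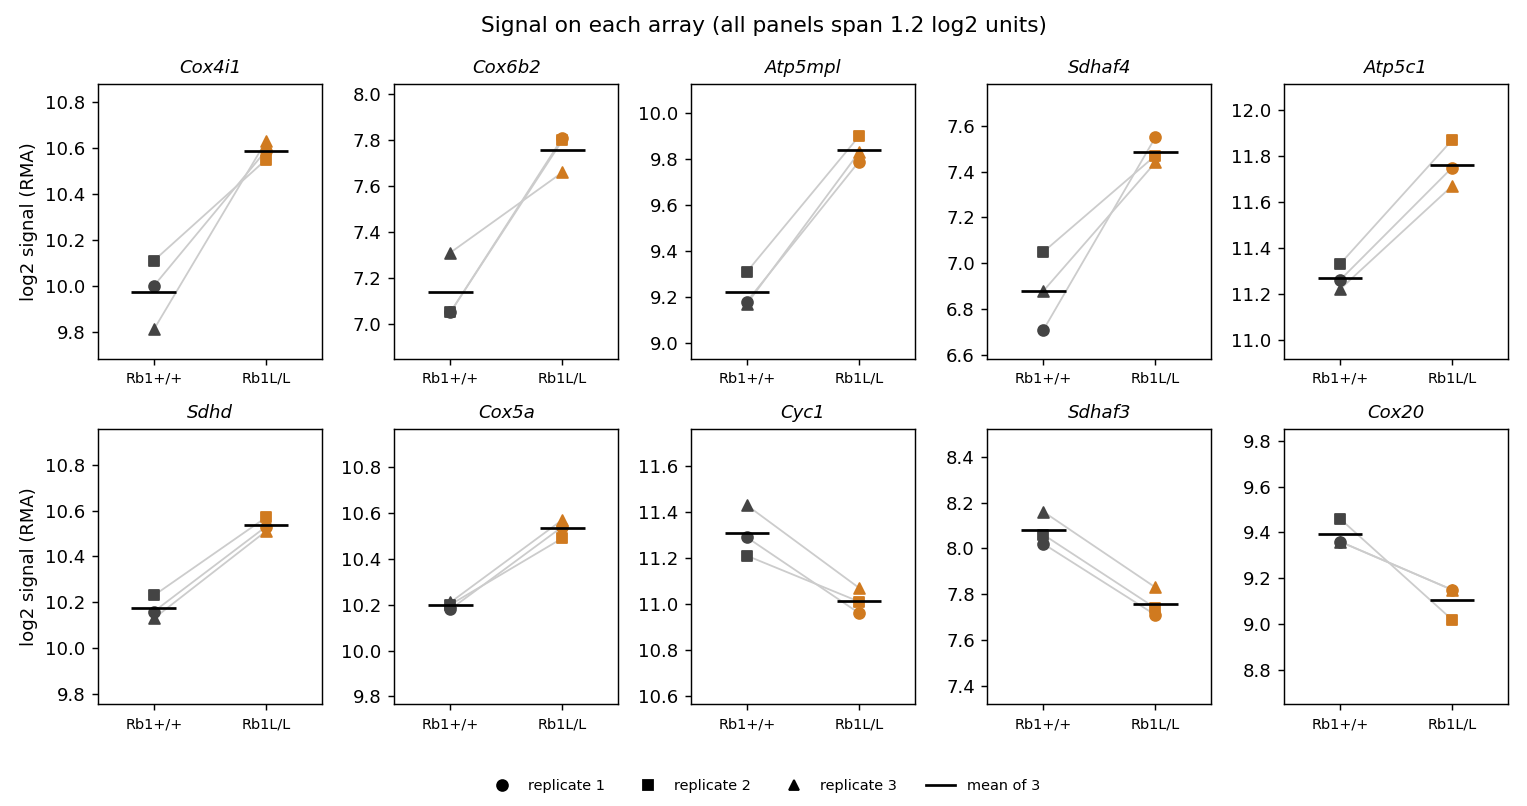
Log2 signal (vertical axis) of 10 genes in the 3 Rb1+/+ cultures (grey) and the 3 Rb1L/L cultures (orange); bars are means, marker shapes give the replicate number and lines join same-numbered cultures. For each gene the genotypes are apart: Cox4i1 spans 9.81 to 10.11 in Rb1+/+ and 10.55 to 10.63 in Rb1L/L, and Cyc1 11.21 to 11.43 and 10.96 to 11.07.

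The assembly factors of complex IV act on copper, heme A and the core subunits. Cox17, the copper chaperone of the intermembrane space, read 6.80, 6.80 and 6.85 in Rb1+/+ and 6.99, 7.12 and 7.04 in Rb1L/L, and it rose by 0.23 ± 0.06 (SE, limma adjusted p = 0.038). Cox14, which couples assembly to synthesis of the core subunit COX1, read 8.26, 8.18 and 8.34 against 8.63, 8.47 and 8.50, and it rose by 0.27 ± 0.07 (limma adjusted p = 0.0381). In contrast, Cox20, a chaperone of the core subunit COX2, stood at 9.36, 9.46 and 9.36 in Rb1+/+ and at 9.15, 9.02 and 9.15 in Rb1L/L, and it fell by 0.29 (SE 0.06, limma adjusted p = 0.0259). Cox17 and Cox14 passed in none of the 6 fits without 1 array (adjusted p = 0.0545 to 0.129), and Cox20 passed in 1, that without Rb1L/L replicate 3. The others did not pass. Cox10 and Cox15, which make heme A, had changes of -0.06 and, with groups apart, 0.10, the copper factors Cox11 and Cox19 of -0.11 and -0.13, and the supercomplex factor Cox7a2l of 0.09. Cox18, an insertase for COX2, had a change of 0.25 ± 0.15 (SE) and a low Rb1+/+ replicate 2 (10.62, against 11.25 and 11.17).

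In complex V, 2 of the 3 genes of the central shaft rose, and of the head genes Atp5a1 rose while Atp5b did not pass. Atp5c1 encodes the gamma subunit, the shaft that turns within the head. It read 11.26, 11.33 and 11.22 in Rb1+/+ and 11.75, 11.87 and 11.67 in Rb1L/L, and it rose 1.41-fold (log2 0.49 ± 0.07 SE, limma adjusted p = 0.00593). Atp5e encodes the epsilon subunit at the foot of the shaft. It read 8.25, 8.48 and 8.49 against 8.96, 8.91 and 8.73, and it rose by 0.46 ± 0.09 (SE, limma adjusted p = 0.0178, or 0.0642 without Rb1L/L replicate 1 and 0.0616 without Rb1L/L replicate 2). Atp5d, the delta subunit of the same stalk, had a change of -0.07 ± 0.06 and was the brightest of the 60 genes (mean log2 13.14).

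Atp5a1, the alpha subunit of the head, read 11.40, 11.39 and 11.39 in Rb1+/+ and 11.65, 11.60 and 11.61 in Rb1L/L. The spread within each group was small, and it rose by 0.23 ± 0.05 (SE, limma adjusted p = 0.0279, and 0.0604 to 0.102 in the 6 fits without 1 array). Atp5b, the catalytic beta subunit, read 12.87, 12.83 and 12.84 against 12.82, 12.68 and 12.77, a change of -0.09 ± 0.06 with groups apart that did not pass (adjusted p = 0.365). In the peripheral stalk, which holds the head still, Atp5o (OSCP) read 10.72, 10.81 and 10.83 against 11.00, 10.97 and 11.07, and it rose by 0.23 ± 0.06 (SE, limma adjusted p = 0.0433, and 0.0713 to 0.115 without 1 array). The stalk genes Atp5pb, Atp5h and Atp5j had changes of 0.13, 0.05 and 0.06 and did not pass.

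Of the 3 genes of the c subunit, Atp5g1 fell, Atp5g3 rose, and Atp5g2 had a positive change that did not pass. Atp5g1, Atp5g2 and Atp5g3 encode the same mature protein, which forms the proton-driven ring, behind different import sequences. Atp5g1 read 12.52, 12.49 and 12.58 in Rb1+/+ and 12.22, 12.17 and 12.31 in Rb1L/L, and it fell by 0.29 (SE 0.06, limma adjusted p = 0.0224). A second cluster of Atp5g1 gave -0.28. Atp5g3 read 11.62, 11.62 and 11.69 in Rb1+/+ and 11.90, 11.85 and 11.90 in Rb1L/L, and it rose by 0.24 ± 0.05 (SE, limma adjusted p = 0.0286). Atp5g2 had groups apart and a change of 0.21 ± 0.07 that did not pass (adjusted p = 0.0853, or 0.0388 with a mean-variance trend), and its 3 clusters gave 0.21 to 0.22. Atp5g1 passed when either Rb1+/+ replicate 2 or Rb1L/L replicate 3 was left out but not in the other 4 fits (up to 0.0814), and Atp5g3 in none of the 6 (0.0504 to 0.100). Within an array, the signal of Atp5g3 minus that of Atp5g1 was -0.88 ± 0.02 for the 3 Rb1+/+ cultures and -0.35 ± 0.05 for the 3 Rb1L/L cultures (SD), a shift of 0.53. For Atp5g2 minus Atp5g1 the difference was -0.24 ± 0.15 and 0.26 ± 0.03 (SD), a shift of 0.50. Both shifts were looked at after the values were seen and have no test.

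**Figure D3:**
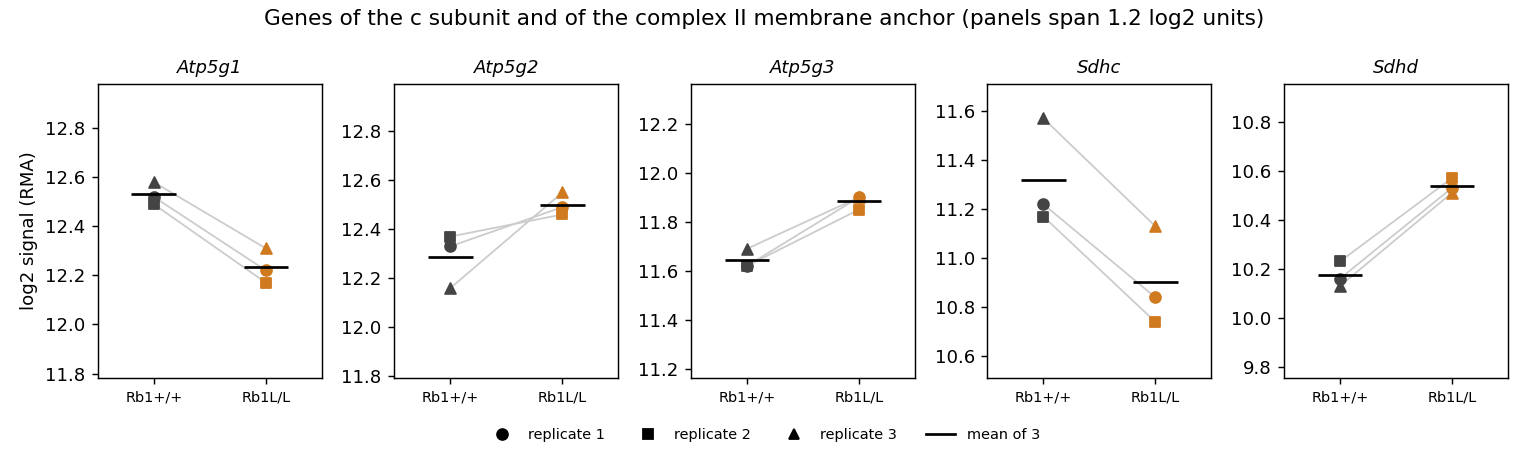
Log2 signal (vertical axis) of the 3 genes of the ATP synthase c subunit and of the 2 genes of the complex II membrane anchor in each culture; bars are means, shapes give the replicate number and lines join same-numbered cultures. Atp5g1 is lower and Atp5g3 higher in every Rb1L/L culture, while for Sdhc the lines run parallel from different starting levels, -0.39 to -0.44 per pair.

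Among the small membrane subunits of complex V, Atp5mpl rose and Atp5md fell. Atp5mpl, which encodes a small proteolipid at the base of the enzyme, read 9.18, 9.31 and 9.17 in Rb1+/+ and 9.79, 9.90 and 9.83 in Rb1L/L. It rose 1.54-fold (log2 0.62 ± 0.06 SE), had the smallest adjusted p of the 59 genes (limma, 0.00273), and stayed at or under 0.0152 in the 6 fits without 1 array. Atp5md, also known as DAPIT, which links ATP synthase into dimers, read 12.29, 12.41 and 12.28 in Rb1+/+ and 12.16, 11.98 and 12.07 in Rb1L/L. All Rb1L/L cultures were lower, but the fall of 0.25 (SE 0.07) stood at the threshold (limma adjusted p = 0.0499) and was not called with the replicate block (0.0661), after median centring (0.0801) or without any 1 array (0.0717 to 0.158). Atp5k, the e subunit, had a change of 0.21 ± 0.07 with groups apart (adjusted p = 0.079), and Atp5l and Atp5j2, the g and f subunits, of 0.03 and -0.02.

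The counts of rises and falls differed along the range of signal. Among the 10 genes with a mean above log2 12, 0 rose and 3 fell (Cox7b, Atp5g1 and Atp5md), for a median change of -0.13. All 274 tested genes in that range had a median of -0.05, 2.55% rose and 4.74% fell. Among the 25 genes between log2 10 and 12, 9 rose and 1 fell, with a median of 0.14, against 8.74% and 8.29% of all tested genes there and a median of -0.03. Of the 15 genes between 8 and 10, 5 rose and 1 fell (6.67%), against 11.5% and 7.22% of all tested genes there, so the share that fell was at the background. Of the 9 below 8, 3 rose and 1 fell, against 3.98% and 2.82%. The part of the signal level in these directions was not tested.

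**Figure D4:**
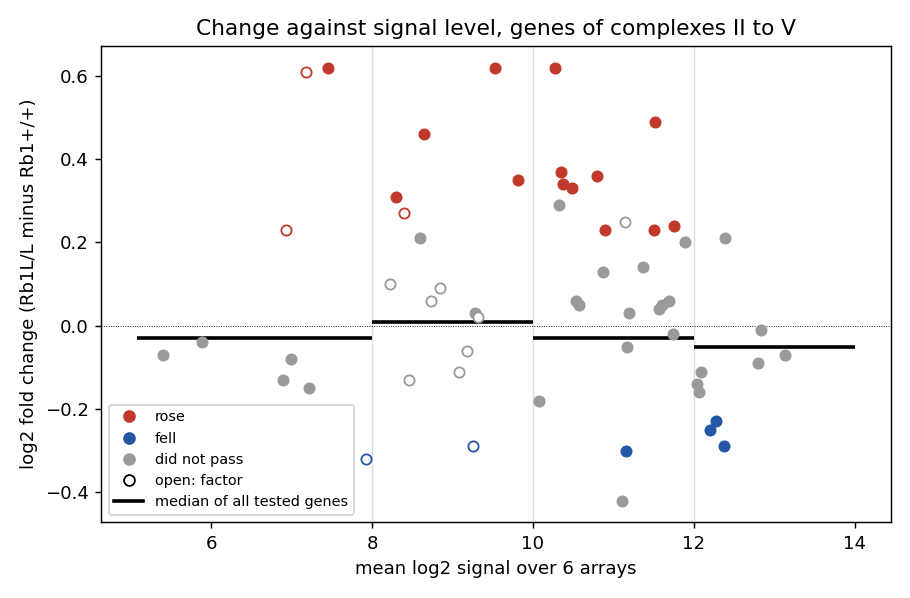
Log2 fold change (vertical axis) against the mean log2 signal over the 6 arrays (horizontal axis) for the 59 tested genes; red rose, blue fell, grey did not pass, open points are factors, and black bars are the median change of all tested genes in each range of signal. No gene above log2 12 is red, and 3 of the 10 there are blue.

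The promoters of the genes were searched for motifs of factors known to act on respiratory genes (NRF1, and GABP through the ETS motif, and YY1) and on cell cycle genes (E2F and the CHR element). RefSeq promoter windows on GRCm38.p6, from 250 bases before to 50 after the annotated start, were found for 46 of the 60 genes, in 49 entries. Both strands were searched for the NRF1 and YY1 consensus, each without mismatches, and for CCGGAAG (ETS), TTTNNCGC (E2F) and TTTGAA (CHR), and matches of different motifs may overlap. Parts of the windows of 4 genes that changed are shown as examples with different contents, from 3 genes that rose and 1 that fell. Each runs 5′ to 3′ on the gene's strand up to the base before the start, is cut where another annotated gene begins, and has motif matches in capitals.
Sdhd: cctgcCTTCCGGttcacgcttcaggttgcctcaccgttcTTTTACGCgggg
Cox6a1: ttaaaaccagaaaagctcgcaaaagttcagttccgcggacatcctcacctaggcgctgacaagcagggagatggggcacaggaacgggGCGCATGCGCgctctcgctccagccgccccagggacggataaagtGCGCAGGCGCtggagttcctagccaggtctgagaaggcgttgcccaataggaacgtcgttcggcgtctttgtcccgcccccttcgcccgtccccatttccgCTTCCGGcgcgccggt
Atp5e: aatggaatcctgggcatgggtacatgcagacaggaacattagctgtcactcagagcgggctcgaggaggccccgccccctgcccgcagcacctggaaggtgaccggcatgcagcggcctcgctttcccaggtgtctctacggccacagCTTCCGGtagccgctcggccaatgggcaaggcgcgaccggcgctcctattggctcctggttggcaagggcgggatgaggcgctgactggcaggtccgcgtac
Atp5md: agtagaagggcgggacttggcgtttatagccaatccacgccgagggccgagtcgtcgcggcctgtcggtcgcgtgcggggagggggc

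The Sdhd stretch is chr9:50603850-50603900 on the minus strand, 51 bases that lie between its start and that of Timm8b, and it holds 1 ETS and 1 E2F match. The searched window of Sdhd reaches further and also holds an NRF1 match, at -79 to -70 from the start. That of Cox6a1 is chr5:115348959-115349208 on the minus strand, with 2 NRF1 matches and 1 ETS match. The Atp5e window is chr2:174464102-174464351 on the minus strand and has an ETS match. The Atp5md stretch is chr19:47090648-47090734 on the minus strand, 87 bases up to the neighbour Pdcd11, and these letters hold none of the motifs. The searched window of Atp5md does hold an ETS match, at positions 3 to 9 after the start, which is included in the counts below.

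ETS and NRF1 letters were common in the windows as a whole. Of the 49 windows 20 (40.8%) held the ETS motif, against 14.4% of 15314 windows of tested genes and 8.86% of all 32851 windows in the table. The NRF1 motif was in 12 (24.5%), against 8.25% and 4.6%, YY1 in 2 (4.08%, against 1.55% and 0.852%), E2F in 5 (10.2%, against 7.39% and 5.17%) and CHR in 4 (8.16%, against 12.2% and 17.9%). Median GC content was 58.7% in these windows, 60.0% in those of tested genes and 52.7% in all. By direction, NRF1 letters were in 6 of 14 windows of genes that rose, 1 of 5 of genes that fell and 5 of 29 of the rest, and ETS letters in 4 of 14, 3 of 5 and 13 of 29. E2F letters were in 2 of 14 windows of genes that rose (Sdhd and Cox5a), 0 of 5 of genes that fell and 2 of 29 of the rest. These E2F counts are too small to be set apart from the 7.39% of windows of tested genes. The NRF1 and ETS counts by direction also rest on few windows, and their relation to direction was not tested.

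The study asks about divergent gene pairs, whose starts lie close together on opposite strands. With annotated starts at most 1000 bases apart, 15 of the 46 genes had such a neighbour, and in 12 pairs the neighbour was tested. Of the 12 neighbours 2 changed, where 12.2% of all tested genes did, and 0 pairs had both genes changed, from which nothing is read in so few pairs. In 4 the respiratory gene changed and its neighbour did not pass: Sdhd (0.37) beside Timm8b, an import chaperone (0.01 ± 0.06 SE, 52 bases between starts), Atp5c1 (0.49) beside Kin (0.20 ± 0.07, limma adjusted p = 0.113), Uqcr10 (0.35) beside Zmat5 (-0.00 ± 0.07) and Atp5md (-0.25) beside Pdcd11 (0.09 ± 0.06). In 2 the neighbour changed instead: Kctd2 rose by 0.42 ± 0.08 (limma adjusted p = 0.0178) beside Atp5h (0.05), and Stxbp4 had a change of -0.60 ± 0.08 (limma adjusted p = 0.0049) beside Cox11 (-0.11). Neither gene passed in the other 6, among them Atp5j (0.06) beside Gabpa (-0.05), the DNA-binding subunit of GABP.

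Other genes of mitochondrial respiration were read from lists of assembly factors, regulators and neighbouring pathways. Of 17 tested assembly and translation factors of complex IV outside the symbols above, 4 rose (23.5%, against 7.1% of all tested genes) and 0 fell, with a median of 0.05. Slirp, which stabilises mitochondrial messenger RNAs, rose by 0.62 ± 0.08, Higd1a, a hypoxia-induced partner of complex IV, by 0.52 ± 0.07, Coa7 by 0.40 ± 0.08 and Fastkd2, a mitochondrial RNA-binding protein, by 0.43 ± 0.09 (SE, limma adjusted p = 0.00484 to 0.0186). With the mean of its clusters Higd1a had a change of 0.27 and was not called (limma adjusted p = 0.0638). Of 14 factors of complexes II, III and V, 2 rose (14.3%, against 7.1% of all tested genes) and 0 fell. With both directions counted, the share was near the 12.2% of all tested genes that changed. Atpaf2, a chaperone of the alpha subunit, rose by 0.35 ± 0.05 (limma adjusted p = 0.00824) and Uqcc1, a complex III factor, by 0.39 ± 0.10 (0.0399, or 0.0508 after quantile normalization). Tmem242 (0.42 ± 0.12, adjusted p = 0.0567, or 0.0393 with the replicate block) and Lyrm7 (-0.22) did not pass.

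Among 16 tested regulators, 2 rose (12.5%, against 7.1% of all tested genes) and 1 fell (6.25%, against 5.08%). Nrf1 had a rise of 0.24 ± 0.06 (limma adjusted p = 0.0326, or 0.0564 after quantile normalization) and Gabpb1, a subunit of GABP, of 0.21 ± 0.06 (0.0451, or 0.0755 after quantile normalization and 0.0614 with the replicate block). Tfb2m, which starts transcription of mitochondrial DNA, had a change of -0.40 ± 0.08 (limma adjusted p = 0.0178), and Myc of -0.20, which did not pass. The share called in either direction was near the 12.2% of all tested genes for the tricarboxylic acid cycle (2 of 15, 13.3%). It was also near it for carriers, channels and import (2 of 18, 11.1%). All of these calls were rises, where 7.1% of all tested genes rose. Of the 15 cycle genes Idh3a (0.44 ± 0.07, limma adjusted p = 0.00733) and Fh1 (0.29 ± 0.08, 0.0476, or 0.0572 after quantile normalization and 0.0578 without the filter) rose and 0 fell, with Idh3b at 0.21 and Mdh2 at 0.16 not passing. Of the 18 genes of the latter list, Timm44 (0.34 ± 0.05, limma adjusted p = 0.0082) and Timm50 (0.36 ± 0.07, 0.0178), both of the inner membrane import machinery, rose and 0 fell, with Vdac2 at 0.23 and Slc25a1 at -0.19 not passing. In the fits without 1 array, Slirp, Higd1a, Atpaf2, Idh3a and Timm44 passed in all 6, Tfb2m and Timm50 in 4, Coa7 in 3, Fastkd2 and Fh1 in 2, Nrf1 and Uqcc1 in 1 and Gabpb1 in 0. For complex I, which feeds the same chain, 6 of 43 genes rose and 3 fell (20.9%, against 12.2% of all tested genes), with a median of 0.10. The difference from complexes II to V was not tested. The mitochondrially encoded subunits were not analysed here.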

How the data were processed

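The table holds log2 values that the authors deposited for 35556 transcript clusters on 6 arrays; RMA and Partek are named in the submitters' processing notes, without versions or settings. RMA brings arrays to a common distribution, which removes shifts of the whole transcriptome, and it compresses folds of dim genes. Clusters with 1 symbol in the platform annotation (21789) were used, the brightest per gene. Tests were run on the 15462 genes whose mean exceeded log2 5.081, below which lie 90% of 1194 chemosensory receptor genes that fibroblasts should not express.

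The genotypes were tested two-sided with limma 3.58.1 (R 4.3.3; lmFit, eBayes) without a block, and p-values were adjusted by Benjamini-Hochberg across the tested genes. The replicate numbers pair the cultures: after subtracting group means, same-numbered arrays had correlations of 0.30, 0.24 and 0.30. By Xist and Eif2s3y the numbers also carry sex, which is the same within each pair. The procedure was tested on simulated data. For the fit without a block these held no replicate effects, so that run cannot show how its calls hold in paired cultures. In simulated data with replicate effects, the replicate block kept false calls near the threshold when variances followed limma's prior. It exceeded the threshold when they did not, so calls made only with the block are less certain. The number of arrays sets the precision. Several clusters are annotated to 14 of the 60 genes, and cross-hybridisation with near-identical copies cannot be told apart. The genes and lists were chosen with earlier results of these data known. Values on all arrays are given for each gene that passed, other genes by complex, tissue isoforms always, and up to 4 genes of smallest p per list; Sdhc, Cycs, Atp5b, the partners and the gene differences were added after seeing values. Reference tables (RefSeq, GRCm38.p6) gave names, neighbours and promoters.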

Additional observations from a re-analysis of the deposited data

How the results depend on the processing

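The array number limits these results: leaving out 1 array, or both arrays of a number, gave 92 to 1441 genes called in all (1883 with all arrays), 0 to 13 of the respiratory genes higher (17) and 0 to 4 lower (6), and a median change of 0.013 to 0.075 (0.049). Which calls were lost follows in part from fewer samples. With the replicate block 16 rose and 6 fell, 21 of the 23 calls remained, Cox7a2 and Atp5md were lost and Sdhc was gained. Of the 23, 21 remained after median centring, 22 after quantile normalization, with array weights or with the mean of clusters, 20 without the filter on dim genes, and all 23 with a mean-variance trend or the 99th percentile filter. The calls lost were of Cox7b, Atp5md and, without the filter, Atp5o (adjusted p = 0.0555). No change of sign occurred among the 23 in these fits. Among subunits alone 14 rose and 4 fell.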
